A study of Mus musculus with 20 samples.

Results

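The interaction of pembrolizumab and ABL503 was measured as the part of the Combination's expression profile that the changes after each agent alone did not add up to. It was computed per gene as (Combination minus ABL503) minus (Pembrolizumab minus Control) on the scale log2(FPKM + 1), where FPKM counts sequenced fragments relative to the length of the gene and the size of the library. A value of 0 means that the single-agent changes add up on the log2 scale, a negative value that the Combination lay below their sum, and a positive value that it lay above. All 20 of 20 libraries entered, 5 in each of 4 groups, and 11794 of 45777 gene symbols were tested, namely those that reached 1 FPKM in 5 or more libraries. The cells were CD8+ T cells sorted from tumours on day 4 after treatment. The tumours grew from MC38, a colon carcinoma line of mouse origin, in which human PD-L1 was overexpressed. The hosts of all 4 groups were C57BL/6 mice that carried hPD-1, hPD-L1 and also h4-1BB, the human forms of the antibodies' targets. Treatment was started at a mean tumour volume of 150 to 200 mm3. Besides Control, labelled only as control, mice received Pembrolizumab, ABL503 or both agents, here called the Combination. Doses and the agent given to Control were not stated in the labels.

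Pembrolizumab is an antibody that blocks the inhibitory receptor PD-1 on T cells. ABL503 is a bispecific antibody that binds PD-L1, the ligand of PD-1, and 4-1BB, a costimulatory receptor of the TNF receptor family that signals to NF-kB. In an additive pair of agents the change after the second agent does not depend on whether the first was given, and the interaction measures the departure from that. Chaperones, the genes that figure most below, encode proteins that fold other proteins and are induced by heat-shock factors under protein load or stress.

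Whether the 5 libraries per group stem from different animals is not given in the labels. The p-values therefore refer to the spread among these samples, which may be technical. Read depth is unknown, and column sums of the table ran from 575918 to 654333. The sort's markers were present, with Cd8a between 224 and 458 FPKM and Cd3e between 186 and 325 over the 20 libraries, while Cd4 reached 0.63. Macrophage markers were mixed: Adgre1 and C1qa were listed at 0 in 15 and 16 libraries, while Cd68 lay between 13.1 and 36.8 FPKM in all, Lyz2 had a median of 10.1 and reached 64.9, and Cd14 reached 22 and Apoe 18.8. The collagen gene Col1a1 was listed at 0 in 13 libraries. MHC class II genes were mixed too, with H2-Aa between 0.871 and 69.6, H2-Eb1 between 0.177 and 39.4, and their activator Ciita at most 0.149. Cd74, the invariant chain, had a median of 97.9 FPKM in Control, 117 in ABL503, 42 in Pembrolizumab and 34.3 in the Combination. Because the target proteins are human, values for Pdcd1, Cd274 and Tnfrsf9 below are those of the mouse symbols in the table.

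After adjustment for all genes tested, a small number of genes passed the test of additivity. At an adjusted p under 0.05 (limma, Benjamini-Hochberg over all genes tested, as for every adjusted p below), 24 of 11794 genes were called, which is 0.203%, with 5 positive (0.0424%) and 19 negative (0.161%). At an unadjusted p under 0.05 there were 1210 genes (10.3%), 619 positive (5.25%) and 591 negative (5.01%). The median interaction over all genes was 0.00 and its median SE was 0.24. Of all genes, 49.7% had a negative value. The 19 genes with a negative call included 5 chaperones, the transcription factors Zbtb32 and Ovol2, the stress-induced genes Ier3 and Nupr1, and the tetraspanin Cd9. The 5 positive calls were Lgals9, Stat4, Limd2, Rab8a and Mob2.

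The group means behind the calls had a recurring shape. In 18 of the 19 genes with a negative interaction the means of both single-agent groups lay above Control, and in 16 of 19 the Combination lay below both single-agent means. In all 5 genes with a positive interaction both single-agent means lay below Control and the Combination lay above both. These counts describe what made the interaction large and are no independent evidence, since the interaction is built from the same means. Hspd1, Hsp90ab1, Zbtb32, Ier3 and Lgals9 stayed past the threshold in every alternative fit with a test and without any 1 library. The other 19 calls each ended in at least 1 alternative.

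**Figure D1:**
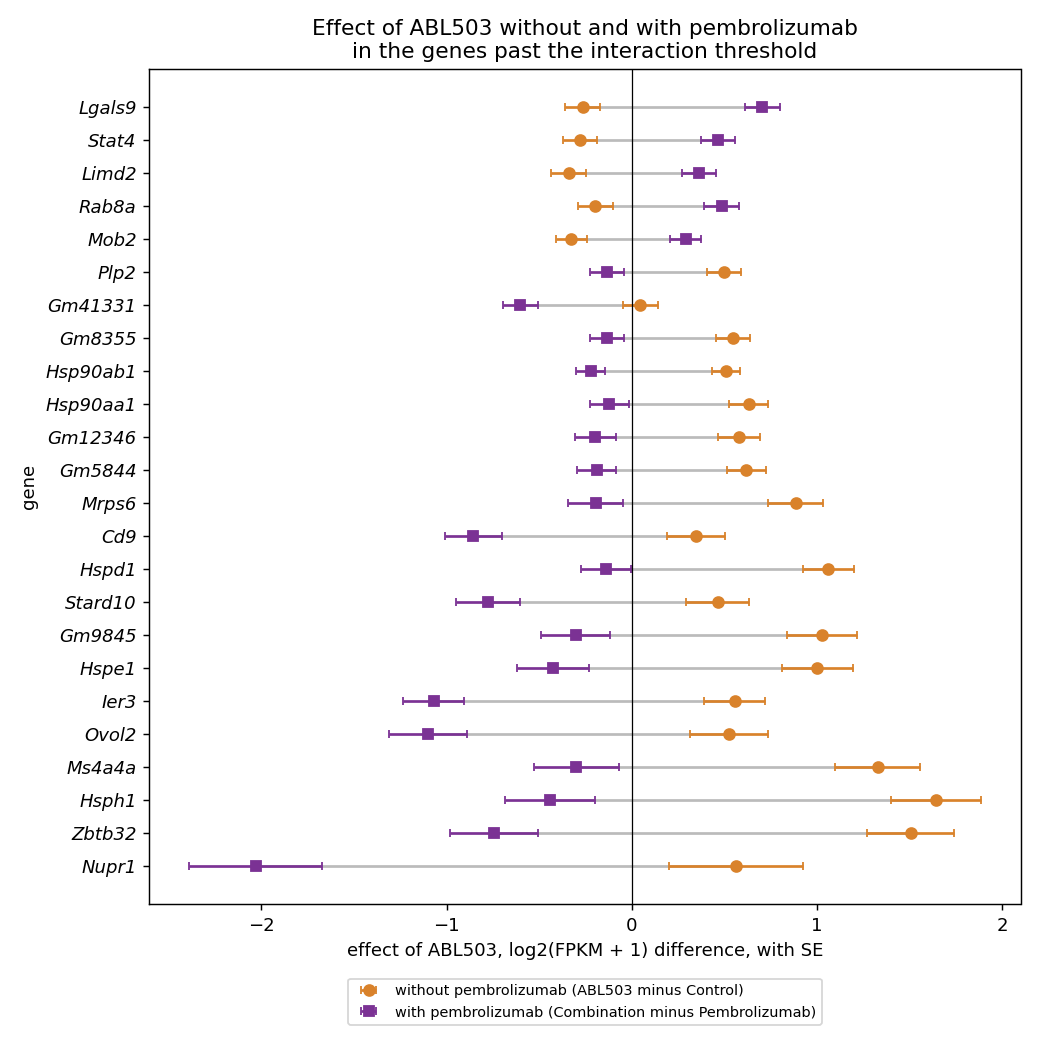
For each of the 24 genes past the interaction threshold, the effect of ABL503 as a difference of log2(FPKM + 1) with its SE, without pembrolizumab (circles) and with it (squares). Grey lines join the 2 effects of a gene, and their length is the interaction: every square lies left of its circle from Plp2 down to Nupr1 and right of it in Lgals9, Stat4, Limd2, Rab8a and Mob2.

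The 5 called chaperone genes had their highest means after ABL503 alone and lower ones after ABL503 with pembrolizumab. Hsph1, a co-chaperone that reloads HSP70 (chr5:149616843-149636498, GRCm38), stood at 17.6, 15.6, 28.5, 29.5 and 30.8 FPKM in Control and at 26.9, 31.1, 37.3, 40.3 and 55.2 in Pembrolizumab. It stood at 91.4, 117, 76.8, 48.3 and 61.5 in ABL503 and at 25.3, 27.4, 18.7, 28.2 and 38.7 in the Combination. Every ABL503 library was above every Control and Combination library, and Control and Combination overlapped. The ABL503 effect was 1.64 (adjusted p = 0.00269) without pembrolizumab and -0.44 (adjusted p = 0.45) with it, and their difference, the interaction, was -2.09 (SE 0.34, 95% interval -2.80 to -1.37, adjusted p = 0.0119). In the bulk RNA of sorted cells, fewer cells of a type with high chaperone RNA and less chaperone RNA per cell cannot be told apart.

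The mitochondrial chaperonin was next. Hspd1, its large subunit (chr1:55077833-55088243), stood at 61.3, 61, 72.1, 65.8 and 55.1 FPKM in Control, 90.9, 96.9, 77.7, 76.8 and 110 in Pembrolizumab, 144, 175, 145, 106 and 105 in ABL503, and 83.3, 90.4, 66.4, 78.2 and 90.6 in the Combination. Hspe1, the small lid subunit (chr1:55088148-55091317), stood at 116, 137, 172, 141 and 135 in Control, 181, 196, 169, 185 and 247 in Pembrolizumab, 396, 405, 221, 192 and 252 in ABL503, and 127, 171, 103, 149 and 189 in the Combination. For both subunits all ABL503 libraries exceeded all Combination libraries, and ABL503 and Pembrolizumab overlapped for each of them. Against Control, Hspd1 differed by 0.51 with pembrolizumab alone (adjusted p = 0.033, no overlap) and by 0.37 in the Combination (adjusted p = 0.080). The interaction was -1.20 for Hspd1 (SE 0.19, adjusted p = 0.00884) and -1.43 for Hspe1 (SE 0.27, adjusted p = 0.0337). The genes lie head to head, so their starts share a regulatory stretch.

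Cytosolic HSP90, which matures kinases and steroid receptors, showed a smaller departure at much higher levels. Hsp90aa1, the inducible form (chr12:110691036-110696395), stood at 549, 691, 624, 576 and 641 FPKM in Control, 667, 647, 690, 630.4 and 844 in Pembrolizumab, 961, 1236, 855, 815 and 943 in ABL503, and 610.1, 607, 603, 644 and 724 in the Combination. Hsp90ab1, the constitutive form (chr17:45567778-45573261), stood at 839, 756, 852, 702 and 734 in Control, 1004, 998, 945, 879.7 and 1091 in Pembrolizumab, 1022, 1185, 1209, 1096 and 1017 in ABL503, and 909.7, 870.4, 802, 804 and 824 in the Combination. In both genes every ABL503 library was above every Control and Combination library, and the ABL503 values overlapped those of Pembrolizumab. Pembrolizumab alone also raised Hsp90ab1 from Control, by 0.34 (adjusted p = 0.013, no overlap). The interaction was -0.75 for Hsp90aa1 (SE 0.15, adjusted p = 0.0344) and -0.73 for Hsp90ab1 (SE 0.11, adjusted p = 0.00461). Leaving out any 1 of the 20 libraries kept Hsph1, Hspd1 and Hsp90ab1 past the threshold, with adjusted p up to 0.0319, 0.0253 and 0.0157. It ended the call of Hspe1 for 10 of 20 libraries (adjusted p up to 0.0767, without Pembrolizumab 5) and of Hsp90aa1 for 14 of 20 (up to 0.0794, without Combination 3).

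**Figure D2:**
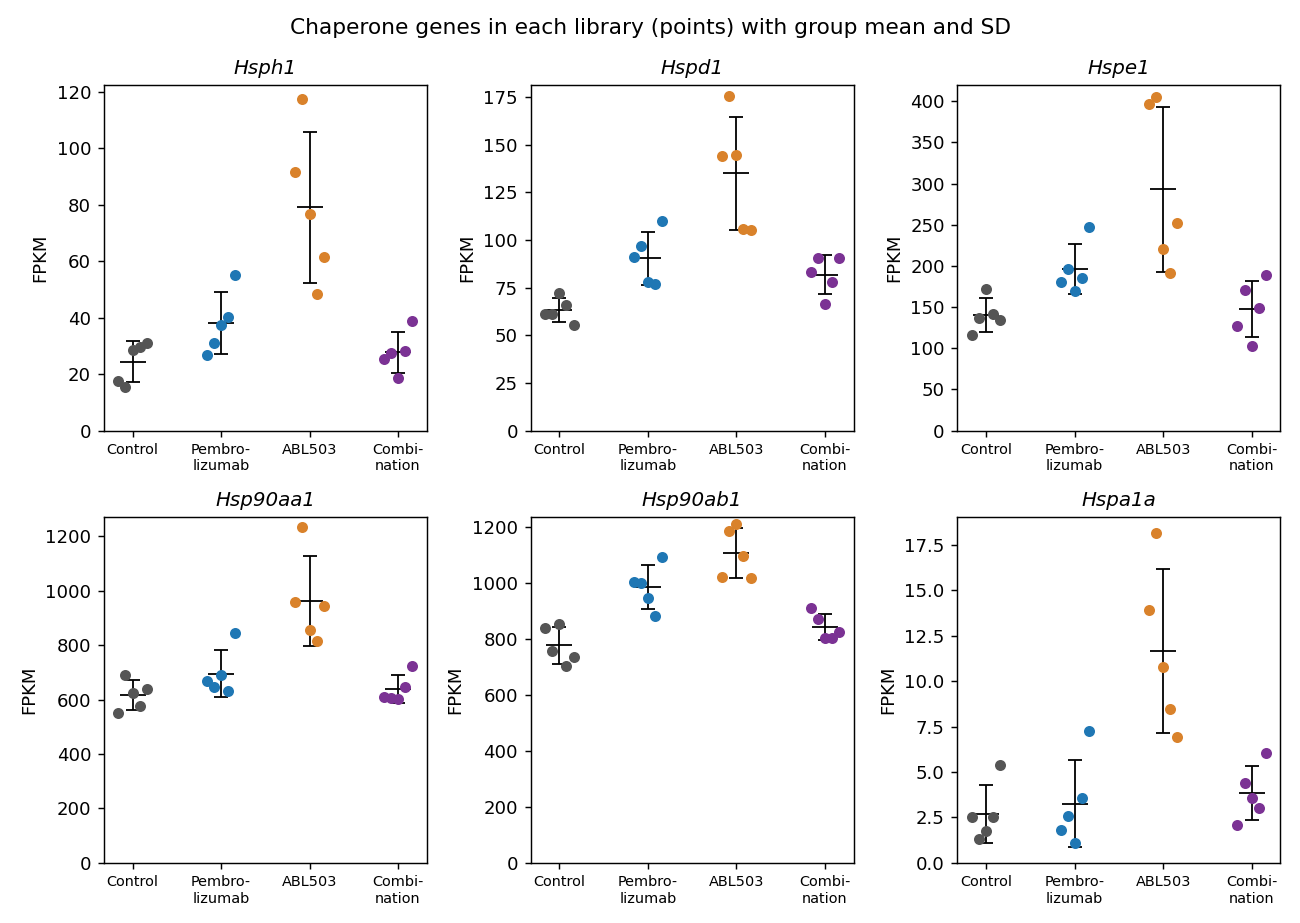
FPKM of 6 chaperone genes in each library (points) by group, with group mean and SD (bars, n = 5). ABL503 has the highest mean in each panel, and the Combination mean lies between those of Control and ABL503.

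Short stretches before the starts of the chaperone genes are shown because these genes moved together and heat-shock factors bind alternating GAA units. The 250 bases before each annotated start were searched on both strands for GAANNTTC or TTCNNGAA (a pair of inverted units) and for GAANNTTCNNGAA or TTCNNGAANNTTC (3 units, which contain the pair). Sequences are from RefSeq, GRCm38.p6, 5′ to 3′ on the gene's strand, with the match in capitals. The Hsph1 stretch is chr5:149636351-149636380 on the minus strand, that of Hspe1 is chr1:55088051-55088080 on the plus strand, and that of Hspd1 is the overlapping chr1:55088055-55088084 on the minus strand. The Hspd1 stretch lies before 1 of its 2 annotated starts. The stretches of Hsph1 and Hspd1 lie within the gene spans given above, before starts inside those spans. Stard10, a lipid-transfer protein and no chaperone, also had a negative interaction and a match at chr7:101317047-101317076 on the plus strand.
Hsph1: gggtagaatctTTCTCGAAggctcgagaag
Hspe1: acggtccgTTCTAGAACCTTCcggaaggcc
Hspd1: gcggggccTTCCGGAAGGTTCtagaacgga
Stard10: actgtctggtcTTCTAGAAcagtgagctca

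The pair of units occurred in 12.8% of 32851 promoter windows and the run of 3 units in 0.466%. Of the tested genes with a window, 12.5% held the pair and 0.495% the run of 3. Of the 12 genes with a negative call that had a window, 4 held the pair (Hsph1, Hspd1, Hspe1 and Stard10), and Hspd1 and Hspe1 held the run of 3. The matches of Hspd1 and Hspe1 lie on the same bases, read on opposite strands. Of the 5 genes with a positive call, Stat4 held the pair, and 0 held the run of 3. Of the 19 chaperones of the list below that had a window, 10 held the pair. A match is a description of the letters and not of binding. Hsp90aa1 and Hsp90ab1 were not searched.

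Over the whole list of cytosolic and mitochondrial chaperones, 22 of 22 members were tested, 19 had a negative interaction, and 5 were called negative against 0.161% of all genes. The median was -0.43, beside 0.00 over all genes, and 13 members had an unadjusted p under 0.05 in the negative direction, beside 5.01% of all genes. Among members that did not pass were the inducible HSP70 genes, which are nearly silent in unstressed cells. Hspa1a stood at 2.5, 1.32, 1.75, 2.49 and 5.37 FPKM in Control, 1.81, 2.59, 1.08, 3.57 and 7.23 in Pembrolizumab, 13.9, 18.2, 10.8, 8.47 and 6.9 in ABL503, and 2.1, 4.41, 3.59, 3 and 6.03 in the Combination. ABL503 did not overlap Control or the Combination, and its lowest library lay under the highest of Pembrolizumab. The interaction was -1.51 (SE 0.47, adjusted p = 0.22), and the near-identical copy Hspa1b gave -1.57 (adjusted p = 0.13), so reads may be shared between them. Hspb1, a small heat-shock protein, gave -2.17 with an SE of 1.05 (adjusted p = 0.49).

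The constitutive HSP70 gene Hspa8 gave -0.55 (SE 0.14, adjusted p = 0.10). The HSP90 activator Ahsa1 gave -0.47 (adjusted p = 0.27). Values near 0 were also seen: Bag3, a co-chaperone of HSP70, gave 0.09, Dnajb4 gave 0.17, and Cct5 of the cytosolic chaperonin gave -0.01. In the pairwise comparisons, 9 of the 22 rose with ABL503 against Control, beside 0.585% of all genes, and 0 fell, beside 0.0339% (0.619% in either direction). At an unadjusted p under 0.05, 0 were lower (4.79% of all genes). With pembrolizumab against Control 2 rose (2.77% of all genes) and 1 fell (2.78%, 5.55% in either direction). When pembrolizumab was added to ABL503, 10 of 22 fell (2.24%) and 0 rose (2.29%, 4.53% in either direction), with 0 higher at an unadjusted p under 0.05 (9.67%). When ABL503 was added to pembrolizumab, 0 rose (0.0678%) and 0 fell (0.0933%, 0.161% in either direction), with 0 higher (7.16%) and 2 lower (5.99%) at an unadjusted p under 0.05. In the Combination against Control 0 rose (6.34%), 4 at an unadjusted p under 0.05 (13.4%), and 1 fell (6.24%, 12.6% in either direction). These comparisons share groups with each other and with the interaction.

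The negative calls included 5 numbered gene models. Gm12346 (-0.77) and Gm5844 (-0.81) are processed pseudogenes whose sequence is 99.5% and 98.5% identical to that of Hsp90aa1, and Gm8355 (-0.68) is 98.7% identical to that of Hspa8. Gm9845 (-1.33) is 100% identical to part of Cflar, the apoptosis inhibitor c-FLIP. Reads of such copies may come from the parent gene, so these calls are uncertain as separate genes. The remaining model, Gm41331 (-0.65, chr15:60141826-60187303), is annotated as a long non-coding RNA, and its sequence was not compared with other genes. It was the only gene with a negative call whose single-agent means did not both exceed Control. All its Combination libraries, 49.1 to 72.9 FPKM, lay below the other 15, whose lowest was 81.5. These models fell outside the rule for named genes and were chosen after their values were seen.

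MHC class II and dendritic-cell markers also had their highest median sum in ABL503 (383 FPKM) and their lowest in the Combination (142). The summed FPKM of the 15 listed markers ran from 219 to 597 in Control, 138 to 229 in Pembrolizumab, 316 to 456 after ABL503 and 113 to 177 after both agents. Ccr7 was a large part of these sums, with medians of 111, 87.9, 176 and 88.2 FPKM in the same order. Not every marker followed the sum. Medians of Zbtb46 were 3.34, 1.88, 6.85 and 6.91, and those of H2-DMa 5.47, 3.35, 4.76 and 6.54, both highest in the Combination. Of 11 tested markers, 8 had a negative interaction and 3 a positive one. Of these 0 were called, 0 were positive and 3 negative at an unadjusted p under 0.05, and the median interaction was -0.50. Among the defining markers, Clec9a was listed at 0 in 17 libraries and Cd209a in 13, while Xcr1 (2.19 to 5.3 FPKM), Zbtb46 (1.06 to 8.85) and Itgax (0.501 to 4.41) were above 0 in all 20, and Siglech was at 0 in 1. When the mean of 25 markers of other cell types entered as a covariate, the interaction was -2.07 for Hsph1, -1.21 for Hspd1, -1.44 for Hspe1, -0.82 for Hsp90aa1 and -0.73 for Hsp90ab1. All 5 of these chaperones stayed past the threshold in that fit (adjusted p from 0.0134 to 0.046), as they did with the mean level of immediate early genes as a covariate, a fit added after the data were seen. The other-cell fit kept 19 of the 24 calls and ended those of Plp2 (adjusted p = 0.054), Mob2 (0.063), Nupr1 (0.070), Ms4a4a (0.072) and Gm41331 (0.075). The largest interaction among the 5 called chaperones, that of Hsph1, missed the threshold without Control 1 and ABL503 3 (-1.98, adjusted p = 0.061), another fit added after the data were seen, and without the filter on low values (adjusted p = 0.063). Hspe1 and Hsp90aa1 missed it in both of these fits (adjusted p = 0.071 without the 2 libraries, and 0.12 and 0.11 without the filter) and with no intensity trend (0.065 and 0.070).

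Transcription factors and stress genes with a negative interaction were mostly high after pembrolizumab. Zbtb32, a repressor of the BTB zinc-finger family (chr7:30589680-30602819), stood at 6.3, 11.6, 8.28, 10.6 and 6.23 FPKM in Control, 72.5, 57.9, 49.4, 39.1 and 50.5 in Pembrolizumab, 27.9, 22.6, 32.7, 27.2 and 19.4 in ABL503, and 47.1, 40.3, 28.6, 15.7 and 33.8 in the Combination. Control was below all other libraries, and the Combination overlapped both single-agent groups. The single changes against Control, 2.52 (adjusted p = 4.93e-06) and 1.51 (adjusted p = 0.00311), sum to 4.03, while the Combination gave 1.78. The interaction was -2.25 (SE 0.33, 95% interval -2.95 to -1.56, adjusted p = 0.00461) and stayed past the threshold without any 1 library (adjusted p up to 0.0157).

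Ier3, an early stress gene that modulates survival signalling (chr17:35821713-35822911), showed the pair returning to the Control level. Its libraries stood at 43.6, 37.2, 35.5, 26.2 and 19.9 FPKM in Control, 78, 69.9, 64.1, 59.6 and 81.2 in Pembrolizumab, 48, 39.7, 46.2, 59.2 and 41.7 in ABL503, and 32.2, 40.5, 31.9, 32.7 and 28.2 in the Combination. Pembrolizumab was above every other library, and the Combination lay within the range of Control. The interaction was -1.62 (SE 0.23, adjusted p = 0.00461), and ABL503 on top of pembrolizumab lowered the gene by -1.07 (adjusted p = 0.0092). Leaving out any 1 library kept the call, with adjusted p up to 0.0147.

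Nupr1, a small stress-induced nuclear protein, was detected mainly in Pembrolizumab. It stood at 5.74, 6.89, 5.17, 4.4 and 7.03 FPKM there, while the other 15 libraries reached at most 2.3, and 3 Control and 2 Combination libraries were listed at 0. The interaction was -2.60 (SE 0.51, adjusted p = 0.0344), or -5.58 with a pseudocount of 0.1 (adjusted p = 0.083). Its mean level was too low for the rule for named genes, and it was chosen after its values were seen. For 12 of the 20 libraries, leaving that library out ended the call (adjusted p up to 0.0781, without Combination 3).

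Ms4a4a, a membrane protein of the MS4A family, reached 28.2 ± 7.2 FPKM in Pembrolizumab, 21.1 ± 5.6 after ABL503 and 22.4 ± 3.28 after both agents, from 8.05 ± 3.45 in Control (SD, n = 5). Its 3 treated groups overlapped each other, and the highest Control library, 13.4, exceeded 1 treated library, the lowest of ABL503, 13.2. The interaction was -1.63 (SE 0.32, adjusted p = 0.0359). Plp2, a proteolipid membrane protein outside the rule for named genes and chosen after its values were seen, had the same shape at 213 ± 31.1, 329 ± 14.7, 300 ± 24.5 and 301 ± 23.6 FPKM from Control to the Combination (SD, n = 5), with an interaction of -0.63 (SE 0.13, adjusted p = 0.0495). In both genes the Combination overlapped ABL503 alone. The mitochondrial ribosome gene Mrps6 gave -1.08 (SE 0.21, adjusted p = 0.0342), with 76.9 ± 11.9, 122 ± 16.6, 143 ± 25.6 and 108 ± 23.8 FPKM (SD, n = 5).

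Cd9 was lower after the pair than in any other group. This tetraspanin of the cell surface (chr6:125460266-125494760) stood at 92, 107, 87.2, 102 and 80.4 FPKM in Control, 110, 92.5, 106, 85 and 90.1 in Pembrolizumab, 120, 128, 103, 114 and 129 in ABL503, and 70, 33.3, 43.8, 70.2 and 57 in the Combination. No Combination library reached the range of another group. The interaction was -1.20 (SE 0.22, adjusted p = 0.0309), and the Combination was lower than Pembrolizumab by -0.85 (adjusted p = 0.028) and than ABL503 by -1.15 (adjusted p = 0.00049).

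Ovol2, a zinc-finger factor best known from epithelia, averaged 6.27 ± 2.77 FPKM in Control, 12.4 ± 4.12 in Pembrolizumab, 9.12 ± 1.79 after ABL503 and 5.05 ± 0.635 after both agents (SD, n = 5), with an interaction of -1.63 (SE 0.30, adjusted p = 0.0309). Epcam, another epithelial gene, lay between 0.981 and 7.83 FPKM in these sorted cells, with group medians of 3.84, 4.19, 4.82 and 1.99. Cdh1 and Krt18, epithelial genes too, had other shapes, with medians of 4.4, 1.5, 2.6 and 1.81 and of 1.19, 1.38, 1.03 and 1.33. Of 4 tested markers of tumour and stroma, 2 had a positive interaction and 2 a negative one. The part of these genes in the Ovol2 result was not tested. Stard10, whose sequence is shown above, averaged 7.58 ± 2.07, 12.5 ± 1.47, 10.8 ± 2.37 and 6.98 ± 1.65 FPKM in the same order (SD, n = 5), with an interaction of -1.24 (SE 0.24, adjusted p = 0.0342). Leaving out 1 library ended the calls of Ms4a4a for 13 of 20 libraries (adjusted p up to 0.0828), Plp2 for 15 (0.0974), Mrps6 for 14 (0.0767), Cd9 for 8 (0.0563), Ovol2 for 7 (0.0563) and Stard10 for 13 (0.0767).

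**Figure D3:**
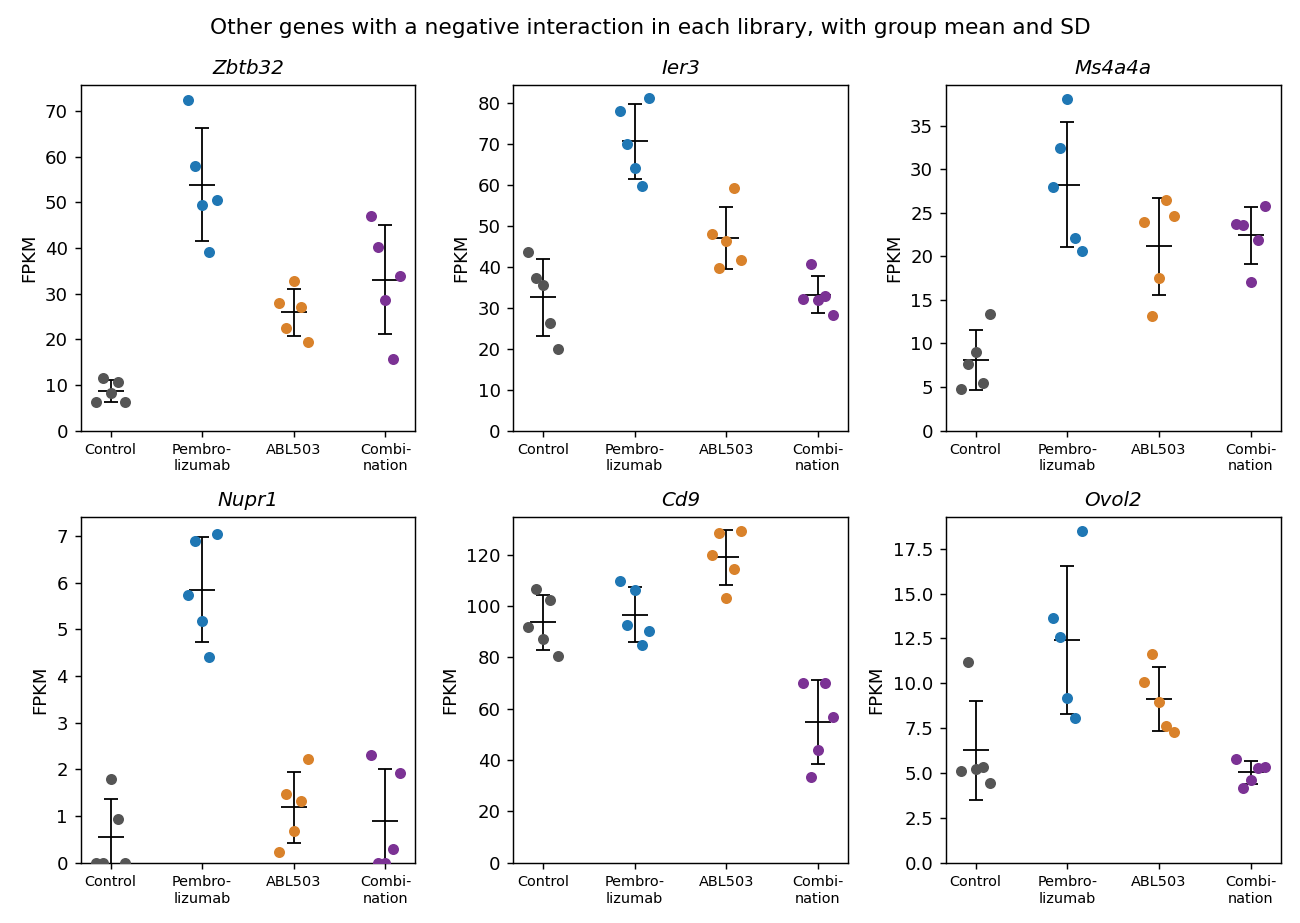
FPKM of 6 further genes with a negative interaction in each library (points) by group, with group mean and SD (bars, n = 5). Pembrolizumab has the highest mean for Zbtb32, Ier3, Ms4a4a, Nupr1 and Ovol2, and the Combination has the lowest mean for Cd9.

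Positive interactions were smaller and sat in well-expressed genes. Lgals9, which encodes galectin-9, a lectin that binds TIM-3 (chr11:78962979-78984924), stood at 106, 90.2, 125, 109 and 112 FPKM in Control, 74.6, 97.3, 89.1, 79.2 and 76.5 in Pembrolizumab, 88, 93.9, 80, 88.7 and 98.6 in ABL503, and 125, 134, 133, 158 and 132 in the Combination. The Combination did not overlap either single-agent group, and only its lowest library, 124.7, fell under the highest Control library, 125.2. The interaction was 0.97 (SE 0.13, 95% interval 0.69 to 1.25, adjusted p = 0.00461). It stayed past the threshold without any 1 library, with adjusted p up to 0.0147.

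Stat4, the transducer of interleukin-12 signals (chr1:51987106-52107189), stood at 141, 146, 113, 146 and 132 FPKM in Control, 81, 97.2, 80.7, 77.9 and 89.6 in Pembrolizumab, 113, 102, 128, 104 and 110 in ABL503, and 102, 120, 120, 115 and 135 in the Combination. Pembrolizumab was below all other libraries, and the Combination overlapped Control and ABL503. The interaction was 0.75 (SE 0.13, adjusted p = 0.0226). Pembrolizumab lowered the gene by -0.66 from Control (adjusted p = 0.00044), and adding it to ABL503 gave 0.08 (adjusted p = 0.64). For 2 of the 20 libraries, leaving that library out ended the call (adjusted p up to 0.0525, without Pembrolizumab 1).

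Rab8a, a small GTPase of vesicle transport (chr8:72161200-72181366), was highest in the Combination. It stood at 72, 72.4, 83.1, 79.4 and 82.7 FPKM in Control, 78.3, 87.8, 76.7, 63.1 and 67.6 in Pembrolizumab, 79.6, 59.2, 61.7, 73.8 and 66.5 in ABL503, and 104, 109, 95.9, 104 and 109 in the Combination. Every Combination library was above all 15 others. The interaction was 0.68 (SE 0.13, adjusted p = 0.0342). Limd2, a LIM-domain protein, averaged 91.6 ± 7.94, 74.1 ± 6.68, 72.4 ± 9.65 and 95.4 ± 6.26 FPKM from Control to the Combination (SD, n = 5), with an interaction of 0.70 (SE 0.13, adjusted p = 0.0328). Mob2, a binding partner of NDR kinases, averaged 108 ± 12, 72.1 ± 5.47, 85.8 ± 4.07 and 88.6 ± 7.66 (SD, n = 5), with 0.62 (SE 0.12, adjusted p = 0.0337). Leaving out 1 library ended the calls of Rab8a for 13 of 20 libraries, Limd2 for 6 and Mob2 for 12, each with adjusted p up to 0.0767, without Pembrolizumab 5.

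**Figure D4:**
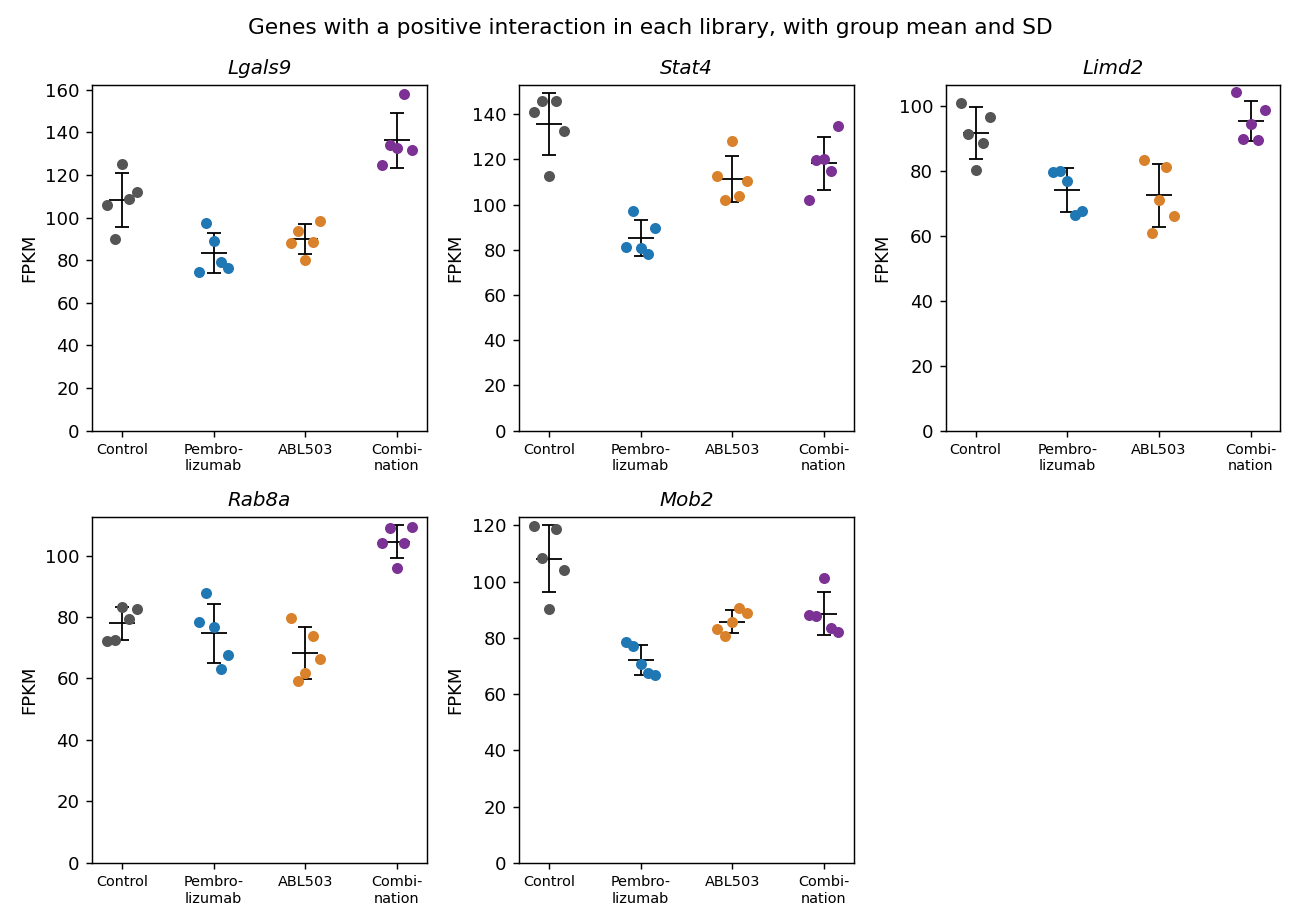
FPKM of the 5 genes with a positive interaction in each library (points) by group, with group mean and SD (bars, n = 5). Both single-agent groups average below Control in every panel, and the Combination averages above both.

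The starts of the 5 positive genes were searched for GAAANNGAAA on both strands of the same 250-base windows. This is a pair of direct GAAA units of the kind that interferon regulatory factors bind. The pair of direct units occurred in 2.98% of windows and in 3.52% of tested genes with a window. Among the 5 it was found in Lgals9 and Stat4, and in 0 of the 12 searched genes with a negative call. Of the 18 type I interferon genes that had a window, 8 held it. The Lgals9 stretch is chr11:78984960-78984989 on the minus strand and that of Stat4 is chr1:52008133-52008162 on the plus strand, before the second of 2 annotated starts. They are shown because these 2 genes lead the positive calls.
Lgals9: tgacatcagcTTTCTTTTTCtctagacact
Stat4: aatgtcttcaGAAAGTGAAAtttagaacgg

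The genes next in line in the positive direction did not pass, all at an adjusted p of 0.0529. Rgs10, a regulator that turns off G-protein signals, stood at 64.9, 79.8, 60.8, 55.7 and 60.5 FPKM in Control, 18.6, 35.7, 31, 56.8 and 28.5 in Pembrolizumab, 34.6, 29.4, 28.4, 28.5 and 31.5 in ABL503, and 31.1, 32.2, 69, 51.6 and 38.9 in the Combination. Its interaction was 1.45 (SE 0.32, 95% interval 0.79 to 2.10). Ly6e, an interferon-induced membrane protein, averaged 710 ± 94.8, 534 ± 46, 748 ± 72.3 and 926 ± 130 FPKM (SD, n = 5), with 0.70. The others were the adaptor Sash3 (1.01), Wbp1 (1.05), the palmitoyltransferase Zdhhc13 (0.76), the protease cathepsin W gene Ctsw (0.64) and the ESCRT gene Chmp2b (0.54).

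Type I interferon response genes, which encode antiviral effectors, had mostly positive interactions without a call. Of 28 listed, 24 were tested, 21 were positive, 0 were called in either direction, and 10 had an unadjusted p under 0.05, all positive (5.25% of all genes). Their median was 0.47. Mx1, a GTPase that blocks viruses, stood at 5.91, 6.02, 5.72, 8.41 and 5.15 FPKM in Control, 4.08, 5.31, 7.82, 7.82 and 3.83 in Pembrolizumab, 4.29, 5.14, 5.31, 4.04 and 5.39 in ABL503, and 7.61, 11.8, 8.98, 13.2 and 12.2 in the Combination. The Combination lay above ABL503 throughout and overlapped Control and Pembrolizumab. Its interaction was 1.12 (SE 0.26, adjusted p = 0.067). Oas1a gave 1.08 (adjusted p = 0.23), and Ifit3b 1.07 (adjusted p = 0.081). In the pairwise comparisons, 6 members rose when pembrolizumab was added to ABL503 (2.29% of all genes) and 0 rose with pembrolizumab against Control, 1 at an unadjusted p under 0.05 (8.81%). The difference between these comparisons is the interaction tested above. With ABL503 alone, 21 of 24 members were below Control, with 0 called (0.619% of all genes). At an unadjusted p under 0.05, 10 were lower (4.79%). With pembrolizumab alone, 17 were below Control, with 2 called lower (2.78%). In the Combination against Control 12 were higher and 12 lower, with a median of -0.007. Of these, 2 were called higher (6.34%) and 4 lower (6.24%). GTPases induced by interferon gamma, such as Irgm1 (0.46, adjusted p = 0.48) and Gbp2 (0.33, adjusted p = 0.63), had a median of 0.21 over 15 tested, with 0 called, and 2 positive and 0 negative at an unadjusted p under 0.05.

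GIMAP GTPases and quiescence genes, which maintain resting lymphocytes, had a median of 0.38 over 18 tested, with 0 called, and 7 positive (5.25% of all genes) and 1 negative (5.01%) at an unadjusted p under 0.05. Gimap6 averaged 303 ± 31.3 FPKM in Control, 211 ± 13.7 in Pembrolizumab, 216 ± 15.9 after ABL503 and 216 ± 27.7 after both agents (SD, n = 5). Each treated group lay at about the same level, and the interaction was 0.50 (SE 0.13, adjusted p = 0.10). Gimap4 gave 0.42 (adjusted p = 0.20), and Txnip, a brake on glucose uptake, 0.62 (adjusted p = 0.21). T-cell receptor signalling genes had a median of 0.10 over 19 tested, with 0 called, and 5 positive and 0 negative at an unadjusted p under 0.05. Among them the kinase Lck gave 0.58 (SE 0.15, adjusted p = 0.10), and Ubash3a, a phosphatase that dampens the receptor, 0.80 (SE 0.19, adjusted p = 0.081).

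Killing genes had mostly negative interactions on the log2 scale without any call. Perforin and 8 granzymes had a median of -0.85, 8 of 9 were negative, 0 were called (0.203% of all genes), and 4 had an unadjusted p under 0.05, all negative (5.01% of all genes). Prf1, the pore-forming protein, averaged 6.3 ± 2.27 FPKM in Control, 33 ± 4.34 in Pembrolizumab, 12 ± 4.09 after ABL503 and 28.5 ± 4.88 after both agents (SD, n = 5), with an interaction of -1.05 (SE 0.29, adjusted p = 0.15). Gzmb, granzyme B, averaged 633 ± 162, 2246 ± 301, 1017 ± 142 and 2122 ± 686 (SD, n = 5), with -0.85 (SE 0.28, adjusted p = 0.24). The Combination differed from Pembrolizumab by -0.21 for Prf1 (adjusted p = 0.70) and by -0.13 for Gzmb (adjusted p = 0.81).

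For granzymes C and F the value depended on the scale. Gzmf had an interaction of -2.92 on the log2 scale (SE 1.02, adjusted p = 0.28) and of -6.59 FPKM (SE 47) when FPKM means were added directly. Gzmc had -2.02 (SE 0.89, adjusted p = 0.43) and -0.55 FPKM (SE 140). Its means were 48.1 ± 67, 97 ± 33.6, 387 ± 83.3 and 436 ± 293 FPKM (SD, n = 5). All 24 called genes kept their sign when FPKM means were added directly, for example -65.1 FPKM for Hsph1, -38.1 for Zbtb32 and 71.6 for Lgals9.

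Cytokines and chemokines had a median interaction of -0.69 over 15 tested members, with 0 called, and 7 negative (5.01% of all genes) and 0 positive (5.25%) at an unadjusted p under 0.05. Il2, the T-cell growth factor, stood at 3.27, 14.4, 1.97, 7.67 and 5.22 FPKM in Control, 1.95, 2.84, 3.32, 2.19 and 1.54 in Pembrolizumab, 5.43, 8.74, 13.3, 8.57 and 7.83 in ABL503, and 0.245, 0.709, 0.973, 0.238 and 1.82 in the Combination. The Combination overlapped Pembrolizumab and lay below Control and ABL503, and the interaction was -1.52 (SE 0.48, adjusted p = 0.22). Adding pembrolizumab to ABL503 lowered Il2 by -2.47 (adjusted p = 0.00049). The chemokine gene Ccl4 averaged 650 ± 132, 1071 ± 286, 795 ± 109 and 722 ± 164 FPKM (SD, n = 5) with -0.87 (adjusted p = 0.17). Its relative Ccl3 gave -1.09 (adjusted p = 0.24), Csf2, the cytokine GM-CSF, -2.14 (SE 0.85, adjusted p = 0.36), and Ifng -0.56 (SE 0.23, adjusted p = 0.39).

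The targets of the antibodies did not pass. Tnfrsf9, the 4-1BB gene, averaged 107 ± 13.6 FPKM in Control, 241 ± 38.8 in Pembrolizumab, 163 ± 15.8 after ABL503 and 259 ± 35.5 after both agents (SD, n = 5), with an interaction of -0.49 (SE 0.16, 95% interval -0.83 to -0.15, adjusted p = 0.25). Its ligand Tnfsf9 gave -1.24 (SE 0.38, adjusted p = 0.20). Pdcd1, the PD-1 gene, averaged 47.3 ± 23.8, 48.2 ± 10.9, 40.6 ± 8.06 and 78.3 ± 18.2 (SD, n = 5), with 0.81 (SE 0.33, 95% interval 0.11 to 1.51, adjusted p = 0.39). Cd274, the PD-L1 gene, gave -0.17 (95% interval -0.68 to 0.34, adjusted p = 0.87).

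Among TNF superfamily genes, 19 tested with a median of -0.18, 0 called, and 2 positive (5.25% of all genes) and 5 negative (5.01%) at an unadjusted p under 0.05, the closest to the threshold was Tnfsf14, the costimulatory ligand LIGHT. It stood at 6.04, 12.4, 9.34, 9.39 and 6.75 FPKM in Control, 8.2, 7.47, 7.29, 12.7 and 10.9 in Pembrolizumab, 9.27, 7.96, 13.7, 11.2 and 11.2 in ABL503, and 4.6, 2.85, 2.16, 3.08 and 5.94 in the Combination. Every Combination library was below all 15 others, and the interaction was -1.43 (SE 0.31, adjusted p = 0.053). The death receptor Fas gave -0.80 (adjusted p = 0.29) and Tnfsf8, the CD30 ligand, -0.77 (adjusted p = 0.34). Cd70 and Tnfsf4, ligands of CD27 and OX40, gave -1.35 (SE 0.64, adjusted p = 0.48) and -1.07 (SE 0.41, adjusted p = 0.34). The opposite sign was seen in Cd40lg, at 1.72 (SE 0.54, adjusted p = 0.22) and no more than 11.4 FPKM in any library.

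Among receptors of exhausted cells, TIM-3 came closest to the threshold. Havcr2, which encodes TIM-3, stood at 26.9, 42.9, 46.6, 40.7 and 55.9 FPKM in Control, 84.1, 86.2, 92.3, 79.7 and 77.9 in Pembrolizumab, 67.3, 60, 68.6, 71.9 and 65.9 in ABL503, and 74.8, 85.6, 50.6, 62.8 and 74.4 in the Combination. Both single-agent groups lay above Control, the Combination overlapped all 3 other groups, and the interaction was -0.96 (SE 0.21, adjusted p = 0.053). Lag3 gave -0.97 (SE 0.33, adjusted p = 0.26) and Ctla4 0.49 (SE 0.21, adjusted p = 0.43), and the 13 inhibitory receptors had a median of -0.03, with 0 called, and 1 positive and 2 negative at an unadjusted p under 0.05. Of 21 tested transcription factors, Zbtb32 was called (0.161% of all genes were called negative), 7 were negative (5.01% of all genes) and 0 positive (5.25%) at an unadjusted p under 0.05, and the median was -0.23.

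Batf3, a factor of dendritic cells and memory CD8 T cells, gave -1.96 (SE 0.45, adjusted p = 0.067) from 1.76 ± 1.1, 5.91 ± 2.54, 7.41 ± 2.73 and 4.54 ± 2.62 FPKM (SD, n = 5). Irf8, which acts in both lineages too, gave -1.04 (SE 0.25, adjusted p = 0.079), and Zeb2, known from terminal effector cells, -0.84 (SE 0.22, adjusted p = 0.13). The class II and dendritic-cell sums given above moved in part with these genes, and their part in the result was not tested. NK-type receptors, 12 tested with 0 called, and 0 positive (5.25% of all genes) and 5 negative (5.01%) at an unadjusted p under 0.05, had a median of -0.48. Of these Klrd1, the CD94 gene, averaged 206 ± 43.8, 356 ± 36.5, 255 ± 50.2 and 276 ± 53.8 FPKM (SD, n = 5), with -0.69 (SE 0.23, adjusted p = 0.24), and Klre1 gave -0.84 (adjusted p = 0.29).

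Stem-like and memory genes had a median of -0.12 over 19 tested, with 0 called, and 1 positive and 3 negative at an unadjusted p under 0.05. Tcf7, which encodes TCF1, averaged 36.5 ± 14 FPKM in Control, 11.9 ± 5.7 in Pembrolizumab, 24.9 ± 10.6 after ABL503 and 9.49 ± 5.88 after both agents (SD, n = 5). Its interaction was 0.18 with a 95% interval of -1.05 to 1.41, which is too wide to show additivity. Id3, a partner of that program, gave -0.12 (95% interval -0.92 to 0.67). Tcf7 changed sign when certain single libraries were left out, and Id3 also on the square-root and linear scales. The glycolytic enzyme Aldoa gave -0.24 (95% interval -0.54 to 0.07), the proliferation gene Mki67 -0.05 (-0.56 to 0.46), and Cd8a 0.01 (-0.32 to 0.33).

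Genes of protein production had mostly negative values. The unfolded protein response of the endoplasmic reticulum had a median of -0.28 over 18 tested, with 0 called, and 7 negative (5.01% of all genes) and 0 positive (5.25%) at an unadjusted p under 0.05. Hspa5, its central chaperone BiP, averaged 749 ± 37.1, 804 ± 71.6, 882 ± 106 and 665 ± 35.4 FPKM (SD, n = 5), with -0.50 (SE 0.11, adjusted p = 0.067). Hsp90b1, Manf and Pdia6, which fold or chaperone secreted proteins, gave -0.57, -0.57 and -0.58 (adjusted p from 0.15 to 0.17). MYC, amino acid uptake and ribosome biogenesis genes had a median of -0.33 over 18 tested, with 0 called, and 7 negative and 1 positive at an unadjusted p under 0.05. Srm, spermidine synthase, gave -0.94 (adjusted p = 0.21) and the amino acid carrier Slc7a5 -0.71 (adjusted p = 0.22). Ribosomal protein genes had a median of -0.10 over 22 tested.

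**Figure D5:**
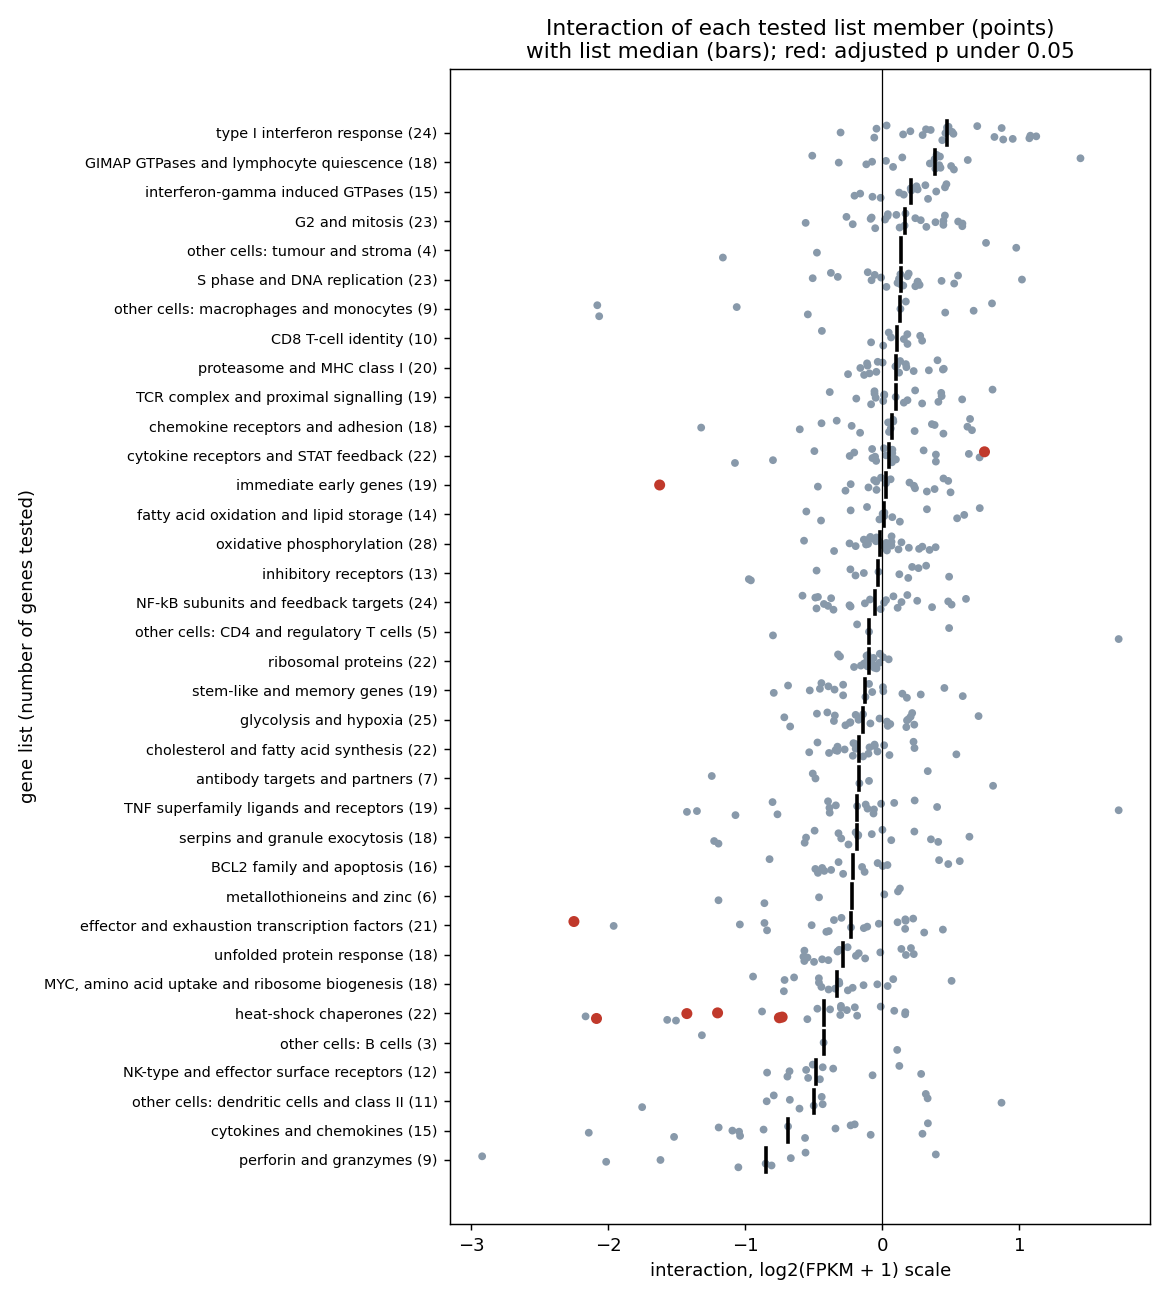
Interaction of every tested member of 36 gene lists with at least 1 tested gene (points), with the list median (bars) and called genes in red, on the log2(FPKM + 1) scale. Medians run from -0.85 for perforin and granzymes to 0.47 for the type I interferon response, and the called genes of these lists are 5 chaperones, Zbtb32, Ier3 and Stat4.

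Genes were also chosen by main effects. In a balanced design their estimate is independent of the interaction's if the 4 groups have equal spread. Equal spread was not tested, and the SDs of Il1r2 below differ between groups. Both estimates also use the same estimate of the spread per gene. The main effect of an agent is its average effect over the presence and absence of the other. The 733 genes higher by the main effect of pembrolizumab (6.22% of all genes, 13.5% in either direction) had a median interaction of -0.02, and the 864 lower genes (7.33%) one of 0.02. The 80 genes higher by the main effect of ABL503 (0.678%, 0.772% in either direction) had a median interaction of -0.15, and 52 of 80 were negative. Of these 80, 23.8% had an unadjusted interaction p under 0.05 in the negative direction (5.01% of all genes) and 3.75% in the positive direction (5.25%). The 11 genes lower by that main effect (0.0933%) had a median of -0.20. Il1r2, the decoy interleukin-1 receptor, is an example of an ABL503 gene: 53.7 ± 17, 82 ± 32.9, 390 ± 108 and 332 ± 221 FPKM (SD, n = 5), with an interaction of -1.08 (SE 0.56, adjusted p = 0.53).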

How the data were processed

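RNA was measured in sorted CD8+ T cells with SMART-Seq v4, a full-length cDNA kit for few cells, per the labels. HISAT2 and StringTie on GRCm38 (mm10) are named in the submitters' processing notes, and their versions and the annotation are not given in the sources used here. Values per gene symbol in the deposited table were taken to be FPKM computed by the authors. That unit is inferred, since the table names none, the values are not whole numbers and column sums differ. Depth is unknown, so precision rests on the spread over the 5 libraries of a group.

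Genes with at least 1 FPKM in 5 or more libraries were kept. limma 3.58.1 in R 4.3.3 was fitted to log2(FPKM + 1) with 1 mean per group (16 residual degrees of freedom) and an intensity trend. The contrasts were the interaction, 5 pairwise comparisons and the main effects. Tests were two-sided, with Benjamini-Hochberg adjustment over 11794 genes and a threshold of 0.05. Intervals are at 95%. Summaries were made in Python 3.11.15 with pandas 2.3.3, and plots with matplotlib 3.10.9. Groups came from the labels' treatment field.

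The interaction and the 37 lists (639 genes, 574 tested) were chosen with earlier results of these data known. Lists were described by counts and medians beside those of all genes, with no set test. Named genes were, in each direction, up to 12 called genes with the largest interaction and a mean log2(FPKM + 1) of at least 2, filled by smallest p. Numbered models, pseudogenes, small RNAs and receptor segments were left out. A panel of 30 genes was added, as were, for the lists described, the 4 tested genes ranking first by interaction p.

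The fit was tested on simulated interactions among 11794 genes. Values were drawn independently per gene around its Control mean, with equal spread in all groups and no single-agent effects. Only genes with a Control mean log2(FPKM + 1) above 2 were changed. The fit recovered 22.4% of genes changed 1.5-fold, 67.2% changed 2-fold and 93.9% changed 4-fold, with 10 wrong calls. In the real data, where genes move together and spread differs, these rates may not hold. Alternatives were pseudocounts of 0.1 and 5, no filter, a mean of at least 5 FPKM, quantile normalization, an equal sum per library, array weights, a replicate block, square-root and linear scales, an adjusted p of 0.1, an other-cell covariate, no intensity trend and each library left out. A fit without 2 libraries and one with an immediate early covariate were added after the data were seen. Promoter windows and positions were RefSeq's for GRCm38.p6, in which 11408 of the tested symbols were found.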

Additional observations from a re-analysis of the deposited data

Results flagged for a closer look

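The called interactions were set apart because the effect of ABL503 differed between libraries with and without pembrolizumab by the test of that difference itself. On the log2(FPKM + 1) scale the positive ones were Lgals9 at 0.97, Stat4 at 0.75, Limd2 at 0.70, Rab8a at 0.68 and Mob2 at 0.62. The negative ones with the largest size were Nupr1 at -2.60, Zbtb32 at -2.25, Hsph1 at -2.09, Ms4a4a at -1.63, Ovol2 at -1.63 and Ier3 at -1.62. After them came Hspe1 at -1.43, Gm9845 at -1.33, Stard10 at -1.24, Hspd1 at -1.20, Cd9 at -1.20 and Mrps6 at -1.08. The smallest were Gm5844 at -0.81, Gm12346 at -0.77, Hsp90aa1 at -0.75, Hsp90ab1 at -0.73, Gm8355 at -0.68, Gm41331 at -0.65 and Plp2 at -0.63.

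Single libraries that stood far from the other 4 of their group were sought in 436 combinations of a named gene and a group, and 24 (5.5%) were found, where chance gives about 1 in 20. Among called genes they were Lgals9 in Combination 4 (158.1 FPKM), Ovol2 in Control 2 (11.2), Stard10 in Control 4 (11.2), Hsp90aa1 in Pembrolizumab 5 (844) and Gm8355 in Pembrolizumab 5 (59.0). Control 2 held 4 of the 24: besides Ovol2 these were Gzmc (167), Ccl3 (570.5) and Serpine2 (6.42). High Control values also appeared for Tnfrsf9 in Control 1 (131), Dusp10 in Control 1 (52.6), Batf3 in Control 3 (3.67) and Mx1 in Control 4 (8.41). In ABL503 they were Gzmb in library 1 (1266), Gzma in library 2 (465), Xcl1 in library 2 (419), Vsir in library 3 (16.5), Zfp36 in library 3 (102), Tox in library 4 (7.64) and, as a low value, Fas in library 5 (56.5). In the Combination they were Zdhhc13 in library 4 (13.2), Ctla4 in library 3 (256), Tnfrsf9 in library 5 (320.4) and Bnip3 in library 5 (125). Ifit3b was low in Pembrolizumab 2 (2.92).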

How the results depend on the processing

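All 24 called interactions kept their sign in every alternative run in which they were tested. Leaving out 1 library gave 6 to 49 calls (24 with all libraries; 6 without Pembrolizumab 1, 49 without Pembrolizumab 4), 1 to 13 positive and 5 to 36 negative. Calls numbered 6 (1 positive, 5 negative) without a filter, 7 (1 and 6) with no intensity trend, 7 (3 and 4) without Control 1 and ABL503 3, 38 (11 positive) with the immediate early covariate, 48 (17 and 31) at a mean of at least 5 FPKM, 50 (17 and 33) with array weights and 79 (29 and 50) at an adjusted p under 0.1. Quantile normalization and the square-root scale each gave 8 positive calls. Pairing by replicate number was weak at most: same-numbered libraries had correlations of deviations from -0.146 to 0.107 over 30 pairs, 2 of them above 0.1. Their median was 0.0259, beside -0.00157 for pairs of other numbers. On average, 8 of 20 libraries correlated best with their own number, more than an equal share among the 5 numbers. A replicate block gave 16 calls, 3 positive and 13 negative, and 14 of the 24 were among them, as were all 5 chaperones. The cause of these changes was not tested.

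Counts of other comparisons moved too. Without a filter, calls numbered 321 for Pembrolizumab against Control (655 in the chosen fit), 42 for ABL503 against Control (73), 3 for the Combination against Pembrolizumab (19), 271 against ABL503 (534) and 939 against Control (1484), 997 for the pembrolizumab main effect (1597) and 14 for that of ABL503 (91). At an adjusted p under 0.1 they were 1154, 115, 99, 1063, 2295 and, for the ABL503 main effect, 189. The other-cell covariate gave 4, 164 and 422 for the Combination against Pembrolizumab, ABL503 and Control, and 625 and 27 for the main effects. Without Control 1 and ABL503 3 there were 435 for Pembrolizumab against Control, 37 for ABL503 against Control, 32 for the Combination against Pembrolizumab and 37 for the ABL503 main effect. The Combination against Pembrolizumab gave 43 at a mean of at least 5 FPKM, 85 with array weights and 12 with no intensity trend. Array weights gave 935 for the Combination against ABL503, no intensity trend 58 for the ABL503 main effect, and the immediate early covariate 706 for the Combination against Control. With 1 library left out the ranges were 383 to 710, 40 to 85, 6 to 49, 263 to 747, 957 to 1659, 1228 to 1785 and 46 to 137, in the order of the first list.

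Uncalled values near 0 changed sign. Cd8a gave -0.0018 with the other-cell covariate and -0.0821 to 0.0809 with 1 library left out. Tcf7 gave -0.0895 to 0.561 with 1 library left out. Id3 gave 0.66 on the square-root scale, 29.2 FPKM on the linear scale and -0.357 to 0.0414 with 1 library left out. Mki67 gave 0.0564 with array weights, 0.0656 with the other-cell covariate and -0.158 to 0.0585 with 1 library left out. Serpine2 gave 0.27 on the square-root scale and 22.7 FPKM on the linear scale, and Bnip3 3.42 FPKM on the linear scale.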

Other observations

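Macrophage and monocyte markers were mixed, and Ly6c2 made up most of their sum. The 15 markers summed to a median of 2293 FPKM in Control, 1616 in ABL503, 2208 in Pembrolizumab and 3122 in the Combination. The median of Ly6c2, which activated and memory CD8 T cells also express, was 2030, 1450, 2110 and 3020 in the same order. Of 9 tested markers, 0 were called for the interaction (limma), 1 was positive and 0 negative at an unadjusted p under 0.05, and their median was 0.13. Members ran from -2.08 for Cd14 (SE 1.04, adjusted p = 0.50) and -2.07 for Lyz2 (SE 1.35, adjusted p = 0.64) to 0.80 for Ly6c2 (SE 0.23, adjusted p = 0.16). Median levels in Control, ABL503, Pembrolizumab and the Combination were 11.8, 14.9, 9.69 and 1.08 FPKM for Lyz2 and 3.04, 4.58, 4.22 and 0.122 for Cd14, so both were highest in ABL503 and lowest in the Combination, as the class II sum was. Their part in the chaperone result was not tested, since the other-cell covariate is a mean of 25 mixed markers and was highest in Control. Markers of tumour and stroma summed to between 5.38 and 17.1 FPKM in any library. Cell-cycle genes had median interactions of 0.13 over 23 genes of S phase and 0.16 over 23 genes of mitosis, with 0 called in either, and 2 and 0 positive at an unadjusted p under 0.05.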
